A study of Drosophila melanogaster with 6 samples.

Results

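Metallothioneins and iron handling genes were examined in the aging Drosophila eye. The genes were MtnA, MtnB, MtnC and MtnD, the metal-responsive transcription factor MTF-1, the ferritin subunits Fer1HCH and Fer2LCH, the transferrin Tsf1 and the metal ion transporter Mvl. These are 9 of the 17560 genes counted in the series, and they were chosen by name for their role in metal handling. Of the 9 genes, 6 had counts of their own. The other 3 overlap neighbouring genes and were counted together with them, Fer1HCH and Fer2LCH as one group and MTF-1 in a group with Nf-YA, CG42526, Bet3 and asRNA:CR45872. A value of a group cannot be given to one of its genes. The 9 genes and their groups held 142 of the 148812 exonic parts and splice junctions counted. Exonic parts are the pieces into which exons are divided wherever annotated transcripts differ.

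Free metal ions are toxic to cells, and each ion has its own route of uptake, storage and export. Metallothioneins are small cysteine-rich proteins that bind copper, zinc and cadmium, and in flies MTF-1 drives their transcription when these metals are in excess. Iron is stored in ferritin, which in insects is a secreted complex of heavy and light chains, and is carried in the hemolymph by transferrin. Mvl, named Malvolio for a defect in taste behavior, is the fly member of the NRAMP family of iron and manganese transporters.

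Total RNA of eyes dissected from male flies was depleted of rRNA and sequenced, with 3 libraries at day 40 and 3 libraries at day 10 after eclosion. All flies, labelled as wild type, had one genotype, with the allele w, a UAS-GFP-Msp300KASH transgene at attP2, an rh1-GAL4 driver and ry[506], so that a GFP tag of the nuclear envelope was expressed in outer photoreceptors at both ages. No flies without the transgenes and no other treatment were part of the series, and age is the only difference that the labels give. The labels do not say how many flies went into a library. The p-values set the age difference against the spread between the 3 libraries per age. That spread was estimated with information shared across genes or features.

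The depth was 8476220 to 12686867 counts on genes in the day 40 libraries and 8946125 to 15029770 in the day 10 libraries. The eye label held: ninaE, the rhodopsin of outer photoreceptors, averaged 589717 normalized counts at day 40 and 655818 at day 10, where a normalized count is a count divided by the median-ratio size factor of its library. Day 10 replicate 1 stood apart in where reads lay along genes. It had 21.2 junction counts per 100 gene counts, against 23.9 to 27.6 in the other libraries. Between the first and the last exonic part of 2401 genes the median shift on the log2 scale was 0.555 in day 10 replicate 1 and 0.518 in day 40 replicate 1, and 0.195 to 0.303 in the others. Day 10 replicate 3 had the most gut and muscle marker counts. Its summed gut markers were 930 normalized counts, against 350 to 433 in the other 5 libraries, and its muscle markers were 11725, against 6714 to 7671. Hemocyte markers summed to 6376 to 7636 normalized counts at day 40 and 8029 to 9767 at day 10. Of this sum, Hml held 1513 to 1718 at day 40 and 3019 to 5570 at day 10. Ppn, also a large part, overlapped, with 3798 to 4731 at day 40 and 2785 to 3811 at day 10. Log2 fold changes were below 0 for Hml, eater and the group of Pxn, and above 0 for NimC1, Ppn and the group of He.

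Changes in level with age were fitted over 9255 genes and groups in edgeR (quasi-likelihood test), with Benjamini-Hochberg adjustment and a threshold of 0.1. The test called 2.14% of these higher and 1.98% lower at day 40. Of the 9 genes, 7 passed the filter on low counts in 6 rows, and none of these rows passed the threshold. At an unadjusted p under 0.05 there were 2 of the 6 rows, MtnA with the higher level and Mvl with the lower level at day 40, beside 14.3% of all genes tested. DESeq2, the other test run, called the same 2 genes, beside 6.22% of all genes tested. In these bulk samples, fewer cells of a type and less RNA per cell cannot be told apart.

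MtnA (FBgn0002868, chromosome 3R, 9783407 to 9784370, Release 6) was the abundant metallothionein of the eye. It had 11460, 6441 and 5946 normalized counts in the 3 day 40 libraries, against 5532, 5293 and 3540 in the 3 day 10 libraries. The ages did not overlap, but most of the difference came from day 40 replicate 1, and the lowest day 40 library lay close to the highest day 10 library. Non-overlapping values were found for 20.2% of all genes tested. The means were 7949 ± 3051 at day 40 and 4788 ± 1088 at day 10 (SD, n = 3 each). The log2 fold change was 0.73 (SE 0.26), a 1.66-fold difference, with adjusted p-values of 0.223 in edgeR and 0.0386 in DESeq2. Without day 40 replicate 1 the log2 fold change was 0.38, with an adjusted p of 0.563 in edgeR.

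MtnB, MtnC and MtnD, the other metallothioneins of the set, were near the floor of detection. In the 3 libraries per age, MtnB counts were 2, 0 and 5 at day 40, against 5, 0 and 4 at day 10, and a count of 0 allows up to 3 counts. For MtnC they were 1, 4 and 4 at day 40, against 1, 2 and 5 at day 10. Both fell below the filter, and the ages overlapped, so that no difference was detectable at this depth. MtnD was a little higher, at 13, 11 and 14 counts in day 40 libraries against 11, 9 and 9 in day 10 libraries. In normalized counts the ages overlapped for MtnD, with 17.3, 12.3 and 11.8 at day 40 and 14.5, 6.91 and 6.72 at day 10. Its log2 fold change was 0.59 (SE 0.53), with an adjusted p of 0.700 in edgeR. Per kilobase of exon, MtnA averaged 11356 normalized counts at day 40 and 6840 at day 10. MtnD averaged 50.5 at day 40 and 34.3 at day 10, MtnC 11.4 at day 40 and 8.20 at day 10, and MtnB 3.93 at day 40 and 5.48 at day 10, on the same scale. MtnB, MtnC and MtnD are related copies, and how the counting treated reads that match more than one copy is not given in the sources used here.

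**Figure D1:**
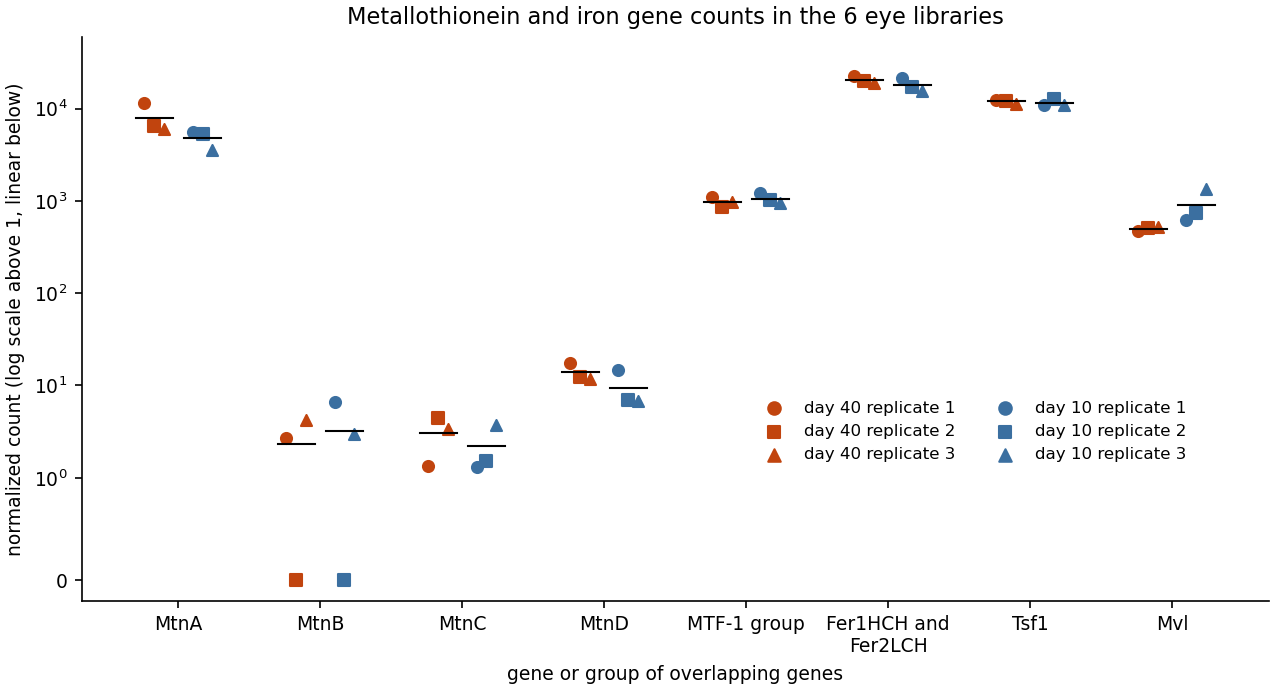
Normalized counts (vertical axis, log scale above 1 and linear below) of each gene or group in the 3 day 40 libraries (red, left of each pair) and the 3 day 10 libraries (blue, right), with black lines for the means of each age. MtnA is at 3540 to 11460 in all libraries, MtnB is at 0 in a library of each age, and at day 40 all 3 Mvl values lie below the day 10 values.

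MTF-1, the activator of metallothionein genes, was counted with its 4 neighbours and could not be read alone. The group had 1099, 859 and 969 normalized counts at day 40 and 1211, 1030 and 940 at day 10, so that the ages overlapped. Its log2 fold change was -0.12 (SE 0.13), with an adjusted p of 0.754 in edgeR. Of its 39 exonic parts and junctions, 25 had enough counts to be tested for usage. Their log2 usage changes ran from -0.47 to 0.46, with 13 above 0 and 12 below 0, and none had an unadjusted p under 0.05.

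Ferritin differed little between the ages. The group of Fer1HCH, the heavy chain with the iron-oxidizing site, and Fer2LCH, the light chain, had 22441, 19921 and 18738 normalized counts at day 40, against 21694, 17104 and 15339 at day 10. The ages overlapped, and replicate 1 was the highest library at each age. The means were 20367 ± 1891 at day 40 and 18046 ± 3281 at day 10 (SD, n = 3 each). The log2 fold change was 0.17 (SE 0.16), with an adjusted p of 0.710 in edgeR, 0.789 in DESeq2 and 0.339 to 0.930 when a library was left out.

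Tsf1 (FBgn0022355, chromosome X, 18387084 to 18390344) was the most even of the set. It had 12528, 12152 and 11286 normalized counts at day 40 and 10995, 12823 and 10839 at day 10. The ages overlapped, with a log2 fold change of 0.05 (SE 0.12) and an adjusted p of 0.911 in edgeR. Transferrin is made in large amounts by the fat body. Of 7 fat body markers, 3 were lower at day 40 in the same fit (the groups of Lsp2 and of Yp1, and Yp2). The Yp1 group had 341, 536 and 1981 normalized counts at day 10, and Yp2 had 344, 391 and 1313, so that replicate 3 was far the highest. When a library was left out, the adjusted p of the Yp1 group reached 0.269 in edgeR. In the Lsp2 group the day 10 libraries were close to each other, at 3082 to 3584. The 7 summed to 91063 to 103724 normalized counts at day 40 and 101784 to 128226 at day 10. Most of this sum was the group of apolpp and Zyx, with 89133 to 100720 at day 40 and 94750 to 123213 at day 10. The log2 fold change of that group was -0.12. None of the 7 was at 0 in a library, and their part in the Tsf1 level was not tested. Per kilobase of exon, Tsf1 averaged 4201 normalized counts at day 40 and 4048 at day 10, below MtnA at both ages.

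Mvl (FBgn0011672, chromosome 3R, 21051383 to 21060800) was the gene of the set with the lowest p-value. It had 471, 508 and 515 normalized counts in the 3 day 40 libraries, against 617, 733 and 1348 in the 3 day 10 libraries. All day 40 values lay below all day 10 values, the day 40 libraries were close to each other, and day 10 replicate 3 stood above the other 2 of its age. The means were 498 ± 23.7 at day 40 and 899 ± 393 at day 10 (SD, n = 3 each). The log2 fold change was -0.87 (SE 0.27), with an adjusted p of 0.163 in edgeR and 0.0143 in DESeq2. Per kilobase of exon, Mvl averaged 88.2 normalized counts at day 40 and 159 at day 10, below MtnA and Tsf1 and above MtnD.

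The size of the Mvl difference rested in part on day 10 replicate 3. Without this library the log2 fold change was -0.42, with an adjusted p of 0.173 in edgeR. Without day 10 replicate 1 it was -1.07, and the adjusted p was 0.0458, past the threshold. Of the 5 gut markers, 3 moved with Mvl and 2 did not. The trypsin gene betaTry was counted 0, 0 and 6 times in the day 40 libraries, against 6, 34 and 297 times in the day 10 libraries. For the protease gene Jon65Aiii the counts were 2, 3 and 3 at day 40, against 7, 15 and 128 at day 10. The maltase gene Mal-A1 was counted in a group with Cyp4e1, which had a log2 fold change of -0.80. The amylase gene Amy-p had 0.50 and the homeotic gene lab had 0.06. These last 3 passed the filter and none passed the threshold, and the 5 markers summed to 401 to 433 normalized counts at day 40 and 350 to 930 at day 10. The 2 lowest gut sums were those of day 10 replicates 1 and 2. Of the 6 hemocyte markers, only Hml passed the threshold in the same fit, lower at day 40 (log2 fold change -1.29, adjusted p = 0.0272 in edgeR). It had 1608, 1513 and 1718 normalized counts at day 40 and 3165, 3019 and 5570 at day 10. For Hml, as for Mvl, the ages did not overlap and day 10 replicate 3 was the highest. Log2 fold changes were also below 0 for eater (-0.44) and the group of Pxn (-0.25). They were above 0 for NimC1 (0.08), the group of He (0.22) and Ppn (0.25). The part of gut or hemocyte RNA in the Mvl level was not tested.

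The counts of Mvl lay differently along the gene at the 2 ages. Usage is given as the percentage of a gene's counts that a feature holds in a library, and changes in usage were tested in edgeR on the counts of the feature and of the rest of its gene. Of 96111 features tested, 0% passed an adjusted p of 0.05, 3.33% had an unadjusted p under 0.05, and DESeq2 called 0.0655%. The members and their groups had 105 features tested. No feature of a member passed in edgeR, 11 had an unadjusted p under 0.05, and all 11 were in Mvl, which had 31 features tested. DESeq2 called 1 of them. Values that did not overlap between the ages were found for 10.1% of all features tested and for 12 of the 31 of Mvl, 8 with the higher and 4 with the lower usage at day 40.

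The feature with the lowest p-value was E8 (chromosome 3R, 21055964 to 21056409), an exonic part of 446 bases that belongs to all 6 annotated transcripts of Mvl. E8 held 12.2%, 15.9% and 9.52% of the Mvl count at day 40, against 30.8%, 25.3% and 31.0% at day 10. The 3 day 40 values lay far below the 3 day 10 values. In normalized counts E8 had 57.3, 80.6 and 49.0 at day 40 and 190, 186 and 418 at day 10. The log2 usage change was -1.54 (SE 0.30), with an unadjusted p of 7.5e-04, an adjusted p of 1.00 in edgeR and 0.0378 in DESeq2. It was -1.76 to -1.32 when a library was left out, with a lowest adjusted p of 0.421 in edgeR.

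The parts at both ends of the gene, which belong to some of the transcripts only, had the larger share at day 40. E2, near the low-coordinate end and part of 4 transcripts, held 23.2%, 22.7% and 24.1% of the Mvl count at day 40 and 8.14%, 14.03% and 5.48% at day 10. E16, near the other end and part of 3 transcripts, held 17.8%, 11.01% and 16.9% at day 40 and 5.14%, 6.60% and 3.601% at day 10. Neither overlapped between the ages. The log2 usage change was 1.68 for E2 (SE 0.39, unadjusted p = 0.0020 in edgeR) and 1.77 for E16 (SE 0.36, unadjusted p = 8.7e-04 in edgeR), and DESeq2 gave adjusted p-values of 0.271 and 0.0653, neither past the threshold. E3 and E4, each found in 1 transcript, had log2 usage changes of 1.20 and 1.51. E2, E16, E3 and E4 were singled out after their values were seen.

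**Figure D2:**
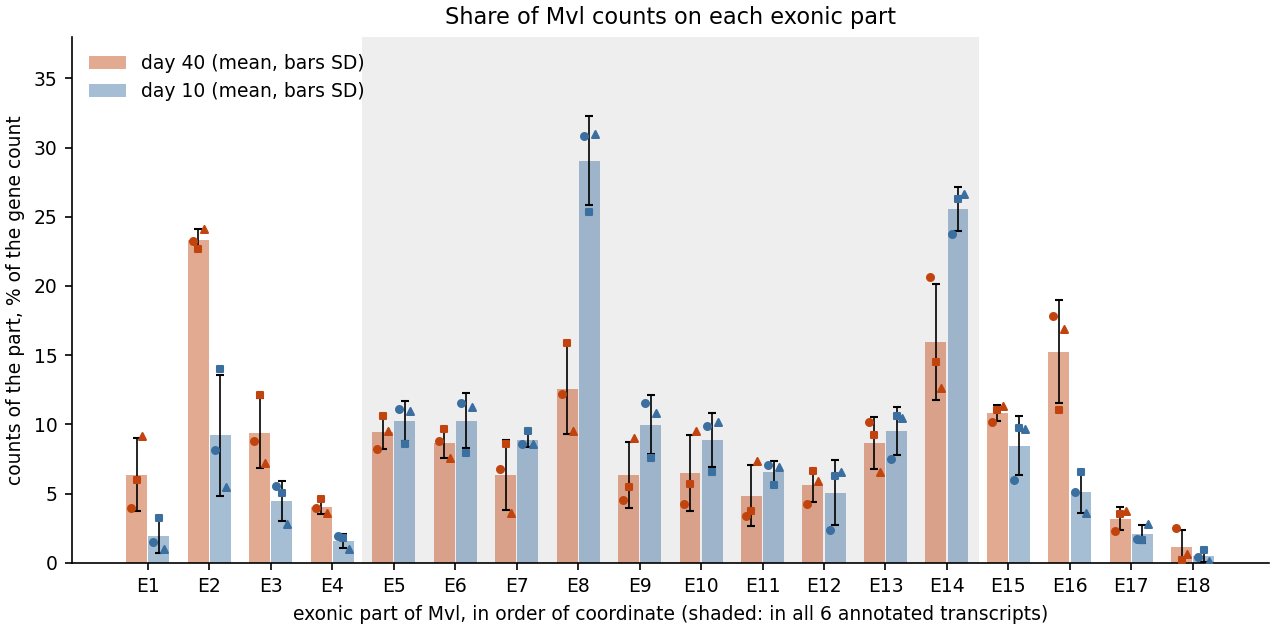
Counts of each exonic part of Mvl as a percentage of the Mvl count (vertical axis), for parts E1 to E18 in order of coordinate (horizontal axis), with bars for the mean and SD of the 3 libraries at day 40 (red, left) and day 10 (blue, right) and points for the libraries. E8 averages 12.5% at day 40 and 29.0% at day 10, and E2 averages 23.4% at day 40 and 9.22% at day 10.

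Grouped by the annotation, all 7 tested parts that belong to some transcripts only had log2 usage changes above 0, from 0.40 to 1.90. Of the 10 parts in all 6 transcripts, 9 had changes below 0, with a range of -1.54 to 0.14. The 9 tested junctions in all 6 transcripts gave 8 below 0, from -1.05 to 0.19. These counts are a description, since the parts share reads and their shares of one gene count cannot all move the same way.

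The 2 kinds of part also differed in level. The parts in all transcripts, E5 to E14, summed to 392, 458 and 418 normalized counts at day 40, against 767, 838 and 1798 at day 10. The other parts, E1 to E4 and E15 to E18, summed to 343, 362 and 395 at day 40 and 188, 315 and 357 at day 10. The first sum was lower at day 40 with no overlap, and the second overlapped. Within the second, the low-coordinate parts E1 to E4 summed to 188, 231 and 227 at day 40 and 106, 177 and 139 at day 10, higher at day 40 with no overlap. The high-coordinate parts E15 to E18 overlapped, with means of 151 ± 18.8 at day 40 and 146 ± 68.4 at day 10 (SD, n = 3 each). The ratio of the first sum to the second was 1.14, 1.27 and 1.06 at day 40, against 4.08, 2.66 and 5.04 at day 10. It averaged 1.16 ± 0.105 at day 40 and 3.93 ± 1.20 at day 10 (SD, n = 3 each). All 3 day 40 ratios lay below all 3 day 10 ratios. This grouping was set after the usage values were seen, and no test of it is given.

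**Figure D3:**
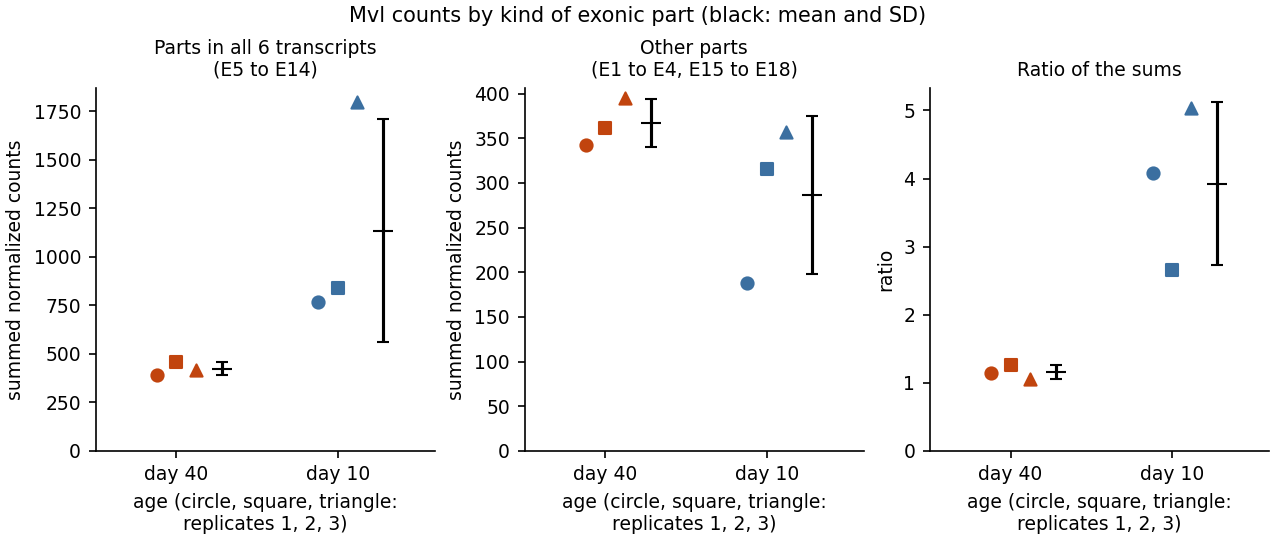
Summed normalized counts of the Mvl parts in all 6 transcripts (left panel) and of the other parts (middle), and the ratio of these sums (right), for day 40 (red, left) and day 10 (blue, right), with a symbol for each library and black marks for the mean and SD. The ratio lies between 1.06 and 1.27 in the day 40 libraries and between 2.66 and 5.04 in the day 10 libraries.

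Junctions that join the alternative ends of Mvl to its shared exons had few reads. J31, which joins E14 to E16 in 2 transcripts, was counted 18, 13 and 28 times at day 40, against 5, 24 and 14 times at day 10. J32, which joins E14 to E17 in 1 transcript, was counted 2, 0 and 0 times at day 40, against 5, 5 and 26 times at day 10. N34, a new junction from inside E3 to E5, was counted 8, 19 and 15 times at day 40, against 0, 7 and 17 times at day 10. As shares of the Mvl count, J31 and N34 were higher at day 40 with no overlap between the ages, and J32 overlapped. Their unadjusted p-values in edgeR were 0.0098 for J31, 0.023 for J32 and 0.0060 for N34, and the adjusted p-values from DESeq2 were all 1.00.

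For the other genes, the library that stood apart in usage was day 10 replicate 1. In Tsf1, E6, the part at the high-coordinate end, held 60.4% of the Tsf1 count in day 10 replicate 1 and 19.4% to 25.9% in the other 5 libraries. The junction next to it, J9, which joins E4 to E5, held 1.07% in day 10 replicate 1 and 8.91% to 13.7% in the others. In the ferritin group, the outermost parts E1 and E26 held 21.2% and 29.6% of the count in day 10 replicate 1. In the other libraries E1 held 13.7% to 16.0% and E26 held 14.4% to 19.1%. It is also the library with the lowest junction share over the whole series, and the part of this in the usage values was not tested.

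**Figure D4:**
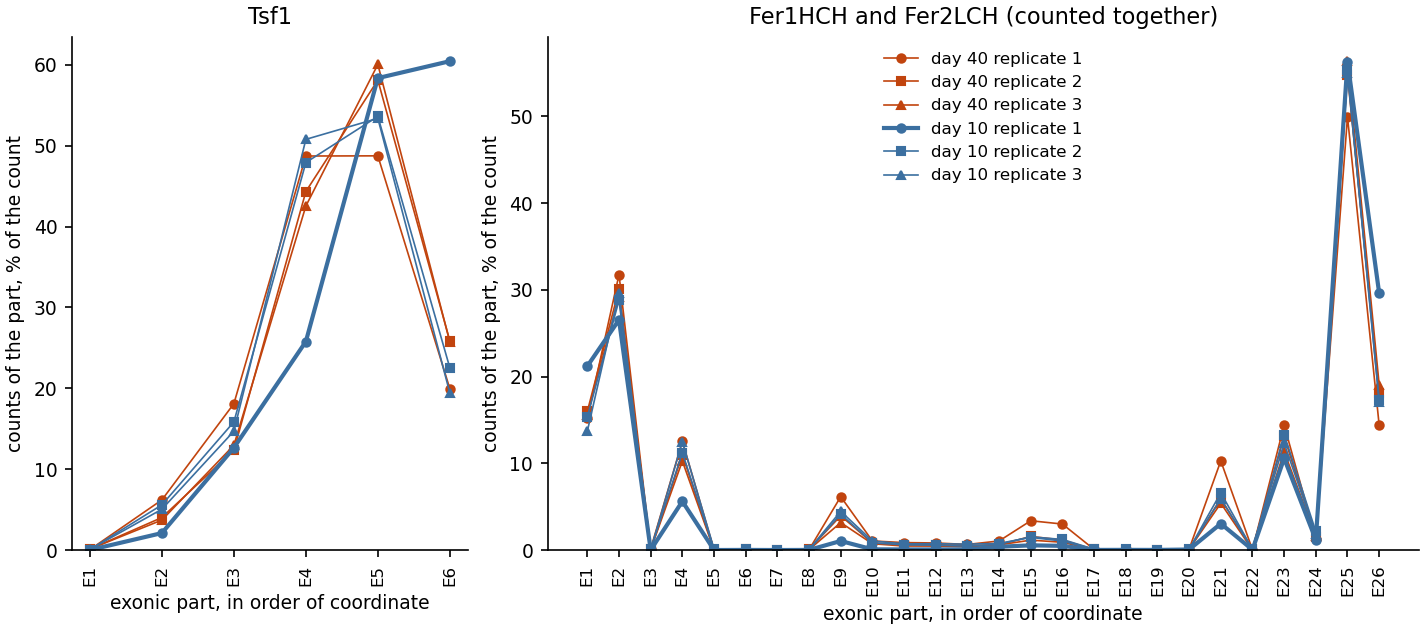
Counts of each exonic part as a percentage of the count of Tsf1 (left) or of the ferritin group (right), in order of coordinate, with a line for each library at day 40 (red) and day 10 (blue). Day 10 replicate 1, drawn thick, is at 60.4% for Tsf1 E6 and at 29.6% for ferritin E26, above the other 5 libraries.

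No feature of Tsf1, ferritin or MtnA had an unadjusted p under 0.05 in edgeR. The lowest in Tsf1 was E1, a part of 837 bases in 1 of 2 transcripts that held under 0.2% of the count, with a log2 usage change of 0.87 (SE 0.52). The lowest in ferritin was E3, counted 23, 12 and 15 times at day 40 against 2, 16 and 5 times at day 10, with a log2 usage change of 1.26 (SE 0.57, unadjusted p = 0.056 in edgeR). Of the 17 annotated junctions of the ferritin group, 5 had 0 counts in every library. MtnA was read mainly from E2 and E3, the parts that both of its transcripts hold. E3 held 87.6%, 80.5% and 80.3% of the MtnA count at day 40 and 62.0%, 79.8% and 79.4% at day 10. The low value was again day 10 replicate 1, and the log2 usage change of E3 was 0.75 (SE 0.40) with all libraries and 0.33 without it. The high value was day 40 replicate 1, and without that library the change was 0.49. In MtnD the lowest p was that of E1, with a log2 usage change of 1.52 (SE 1.22), and in the MTF-1 group that of E6, with -0.47 (SE 0.33).

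Other genes of metal handling were read from a list of 39 genes, chosen by function. Of these, 34 were tested, and at day 40 in edgeR 2 rose and none fell, with 3 called by DESeq2, all higher. At an unadjusted p under 0.05 there were 5 of the 34, a share near the 14.3% of all genes tested. Fold changes were above 0 for 27 and below 0 for 7, and the median log2 fold change was 0.14, against -0.01 over all genes tested. The 2 that rose were Mco1 and IscU, both in the group of other iron, heme and iron-sulphur genes. In that group 13 genes were tested, with a median log2 fold change of 0.24.

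Mco1, a multicopper oxidase linked to iron accumulation in flies, had the largest fold change of the list. It had 98.7, 170 and 112 normalized counts at day 40, against 29.1, 7.68 and 29.9 at day 10. All day 40 values lay well above the highest day 10 value. The log2 fold change was 2.53 (SE 0.46), with an adjusted p of 0.0279 in edgeR and 6.2e-07 in DESeq2. Without day 40 replicate 2 the adjusted p in edgeR was 0.115. IscU, the scaffold on which iron-sulphur clusters are built, had 1528, 1664 and 1514 normalized counts at day 40 and 868, 1199 and 1147 at day 10. The ages did not overlap, and the log2 fold change was 0.54 (SE 0.14), with an adjusted p of 0.0846 in edgeR and 0.0172 in DESeq2. This call was lost without any one of the day 40 libraries, with adjusted p-values of 0.219 to 0.360 in edgeR.

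Zip89B, a zinc importer, came next. It had 345, 234 and 223 normalized counts at day 40, against 192, 103 and 144 at day 10, with no overlap. The log2 fold change was 0.87 (SE 0.25), with an adjusted p of 0.143 in edgeR and 0.0265 in DESeq2. The 8 tested importers of the Zip family all had fold changes above 0, with a median of 0.17 on the log2 scale, while the 7 exporters of the ZnT family had a median of 0.02. None of these 15 transporters passed the threshold in edgeR in the fit as set. Zip89B passed it with no filter on low counts (adjusted p = 0.0890 in edgeR) and without day 10 replicate 1 (0.0531). The next genes by p-value had smaller differences. The log2 fold changes were 0.33 for the group of Ho, the heme oxygenase that releases iron from heme, and 0.33 for Tsf2, a second transferrin. Zip48C had 0.33, FeCH, the ferrochelatase that puts iron into heme, 0.23, the group of Tsf3 0.24, the group of Zip71B 0.22 and Ccs, the copper chaperone of superoxide dismutase, 0.41. None of these 7 passed the threshold, with adjusted p-values from 0.222 for the Ho group to 0.607 for Ccs in edgeR. The 24 other tested genes of the list had log2 fold changes from -0.22 to 0.35, and the 5 not tested, MtnE among them, had at most 18 counts in a library.

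**Figure D5:**
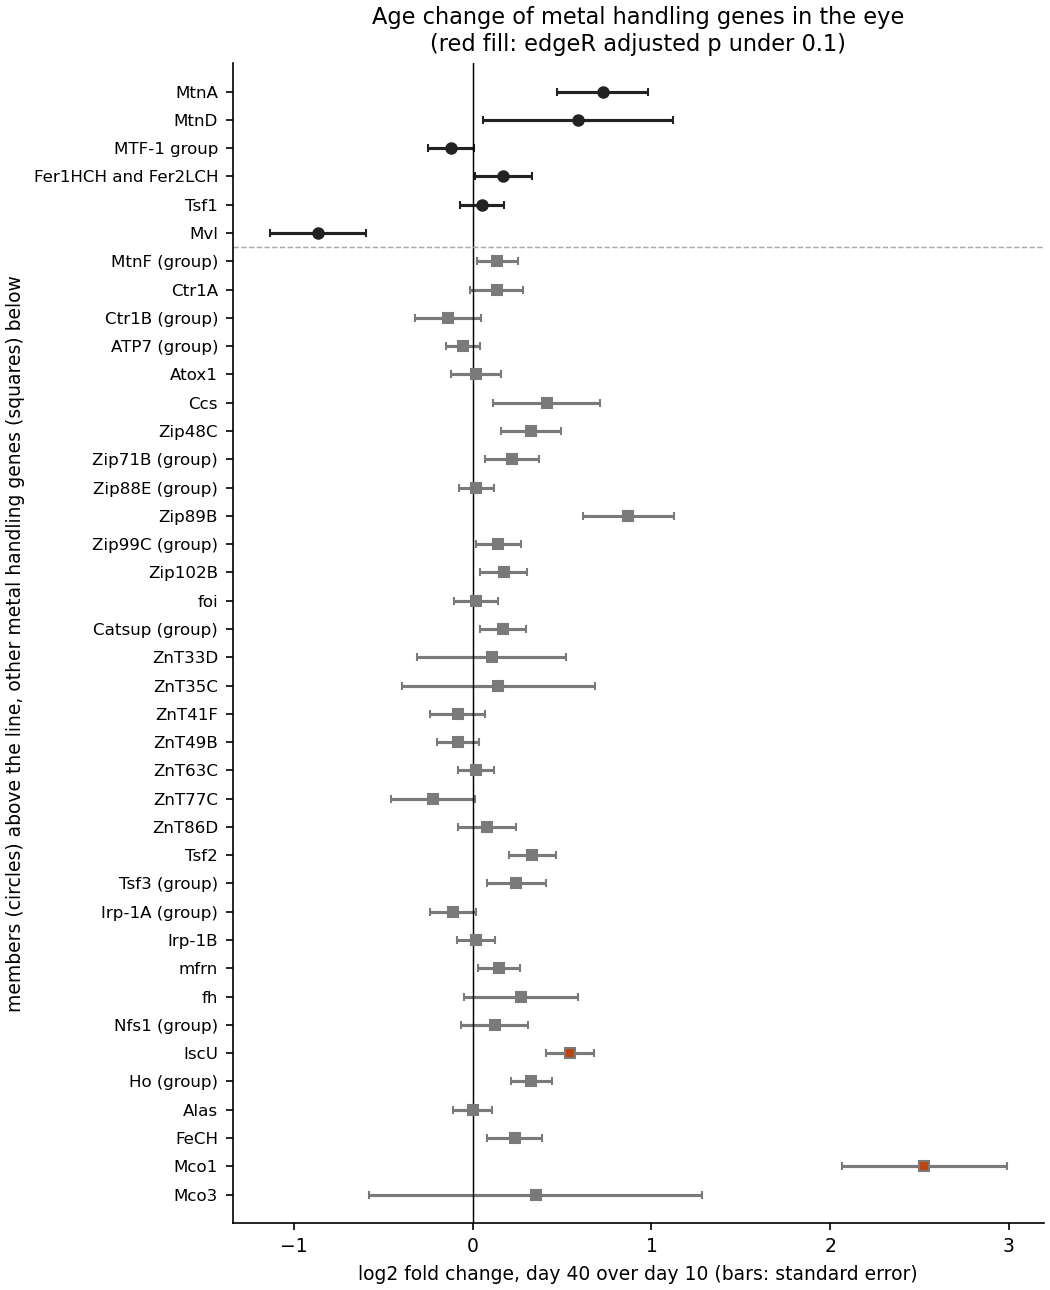
Log2 fold changes, day 40 over day 10, with standard errors (horizontal axis) for the members (circles, above the dashed line) and the other tested metal handling genes (squares, below), with red fill for an adjusted p under 0.1. Mco1 at 2.53 and IscU at 0.54 carry the fill, MtnA at 0.73 and Mvl at -0.87 do not, and most squares lie between -0.22 and 0.41.

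The genes most like MtnA in log2 library-scaled counts over the 6 libraries were CG30423 with a Pearson r of 0.986, Nipsnap with 0.986 and the group of Kmn1 with 0.981. For the ferritin group they were orion with 0.995, pes with 0.993 and Rab8 with 0.993. High values over the 6 libraries were not confined to these genes. Of 9254 other genes, 114 had an r over 0.9 with MtnA and 181 with the ferritin group. The counts were scaled for library depth. The points still share the way reads lay along genes in each library, and the values are given as a description.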

How the data were processed

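Eyes of male flies at day 40 (3 libraries) and day 10 (3 libraries) were profiled by RNA-seq. For each library, the authors deposited raw counts of genes or groups of overlapping genes, exonic parts and junctions, laid out for JunctionSeq. The submitters' processing notes name BDGP6, TopHat and Trimmomatic, and the annotation release and the use of strand are not given in the sources used here. The other deposited columns that were used are the positions in a table of the authors' comparison, to whose start coordinates 1 was added, and its fold changes, p-values and fitted expression were not used. Gene spans and symbols came from RefSeq Release 6, and symbols were found for 17253 of 17560 identifiers.

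Gene counts were tested in edgeR 4.0.16 (R 4.3.3, quasi-likelihood, TMM, filterByExpr, adjusted p under 0.1). Usage was tested with a term per library, a term for the row and its interaction with age, where the mean normalized count of a feature was 5 or more (adjusted p under 0.05). Adjustment was by Benjamini-Hochberg over all genes or features. DESeq2 1.42.0 was an alternative. The gene test, in edgeR and DESeq2, and the usage test, in edgeR only, were run on simulated counts with planted log2 changes of 2. The outcome is not given here, and the DESeq2 usage fit was not run on simulated counts. Replicate libraries differed by more than counting error. Sequences were not used here. The genes named are the 9 members, the list genes past the threshold and those of lowest p up to 10 rows in all, the feature of lowest p per gene, and the 3 genes most like MtnA and Fer1HCH. The members and lists were chosen with earlier results of these data known.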

Additional observations from a re-analysis of the deposited data

How the results depend on the processing

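For the members, the 10 list genes named by rule and the feature of lowest p of each gene, 22 results in all, the direction was the same under every alternative run, and of 265 alternative values 249 stayed on the same side of the threshold. Across all genes 381 passed in edgeR, 601 in DESeq2 and 221 at an adjusted p of 0.05. Leaving out a library gave 116 to 459. The 3 lowest were without day 40 replicate 1 (122), replicate 2 (116) and replicate 3 (146). Of the members, 0 rows passed in edgeR, 2 in DESeq2, 1 with no filter on low counts (Mvl) and 0 to 1 without a library (Mvl, without day 10 replicate 1). Of the metal handling list 2 passed, 1 at an adjusted p of 0.05, 1 with scaling by library totals only, 3 with no filter and 0 to 3 without a library, with 0 without day 40 replicate 2 and 1 without day 40 replicate 1 or replicate 3. In usage 0 features passed in edgeR, 2 at an adjusted p of 0.1, 2 among single genes only, 63 in DESeq2 and 0 to 3 without a library, with 3 without day 10 replicate 1. Of the members' features, 0 passed in edgeR and 1 in DESeq2 (Mvl E8). The cause of these differences was not tested. No pairing by replicate number was evident, as deviations of same-numbered libraries correlated at -0.02, -0.01 and 0.16. Those of differently numbered libraries ran from -0.19 to 0.18. So few libraries cannot exclude pairing. With a replicate block, 464 genes passed, 2 of the members (MtnA, adjusted p = 0.0631, and Mvl, 0.0832), 3 of the list (Zip89B at 0.0380 the added one) and no feature in edgeR. With 3 libraries per age, genes near the floor such as MtnB and MtnC could not be compared.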
